A study of Schizocardium californicum with 12 samples.

Results

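Lys-1 and Lys-3 are 2 of the 27463 genes annotated in *Schizocardium californicum*, an acorn worm whose planktonic tornaria larva turns into a burrowing juvenile at metamorphosis. They were taken by their names, which the deposited tables give without spelling them out and which are read here as lysozyme. They were chosen by their measured reads, present in juveniles and absent in larvae, and by their levels in irradiated against control juveniles, so their values by stage and in irradiated juveniles are given as a description with no test. Another row of the same name, Lys-2, and a pair of rows named Lys2-1 and Lys2-2 serve as context and were tested.

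Lysozymes are secreted enzymes that cut the sugar chains of peptidoglycan, the polymer of the bacterial cell wall. Animals use them against invading bacteria, and in some animals that live on bacteria they are also digestive enzymes of the gut. Which of these uses the acorn worm genes serve is not known from these data, since RNA came from whole animals.

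The 12 libraries made 4 groups of 3. Control larvae and control juveniles received 0 Gy, irradiated larvae 120 Gy and irradiated juveniles 200 Gy of X-rays, and every library was a pool of 5 whole animals collected 3 days after treatment. Genotype, sex and age were not given, and stage and dose cannot be told apart in the irradiated animals. Gene reads per library ran from 7675726 to 26974509, and 20780 genes passed the filter on low counts. Levels are given as CPM (normalised counts, scaled to the TMM-adjusted size of each library) or, where genes are compared with each other, as TPM, which also divides by exon length. The labels and the paper name no batch.

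The 2 genes differ in structure. Lys-3 (SCA24552) is a gene of 1 exon and 414 bases on sequence chr6A_Sc2 of the v2.0 genome, which carries 1279 genes. Lys-1 (SCA10669) has 3 exons with 519 exon bases in a gene of 1161 bases, and it is the only gene annotated on its sequence, scaf600. Lys-2 (SCA24363) also lies on chr6A_Sc2 and is far longer, with 8 exons and 1089 exon bases spread over 34902 bases. Lys2-1 (SCA23963, 6 exons) and Lys2-2 (SCA24623, 3 exons) are on chr6A_Sc2 as well. In the tables these 4 genes of chr6A_Sc2 stand within 5 rows of each other, with Zan-17 between Lys2-2 and Lys-2, but the tables hold no coordinates, so their distance is not given here.

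No read of either gene was counted in any larva. Lys-1 and Lys-3 each had 0 reads in the 3 control and the 3 irradiated larval libraries, among 74738182 larval reads on genes. A count of 0 allows up to 3 reads over a group of 3 libraries, which is 0.0898 CPM in control larvae and 0.0692 CPM in irradiated larvae. These limits, like the intervals below, cover counting error only. With the larval level at these limits, the pooled level of Lys-3 was 117-fold higher in control juveniles than in control larvae. It was 86.1-fold higher in irradiated juveniles than in irradiated larvae. These bounds cover the larval count only and leave out the counting error and the spread of the juvenile libraries. For the less abundant Lys-1 the same bounds were 22.5-fold and 17.3-fold. On the log2 scale its control bound of 4.49 was 3.26 with uniquely placed reads only, 3.58 without the third control juvenile library, and 3.81 or 3.76 without the second or the third control larval library. The Lys-3 control bound of 6.87 was 6.19 or 6.13 without these larval libraries. With so few larval reads no larval response to irradiation could be measured for either gene. Both passed the filter through their juvenile reads. Genes with this pattern, 0 reads in all 6 larval libraries and at least 1 read in each of the 6 juvenile ones, made up 0.925% of the annotation (254 genes). By mean TPM in control juveniles Lys-3 ranked 11 and Lys-1 ranked 51 among these 254.

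**Figure D1:**
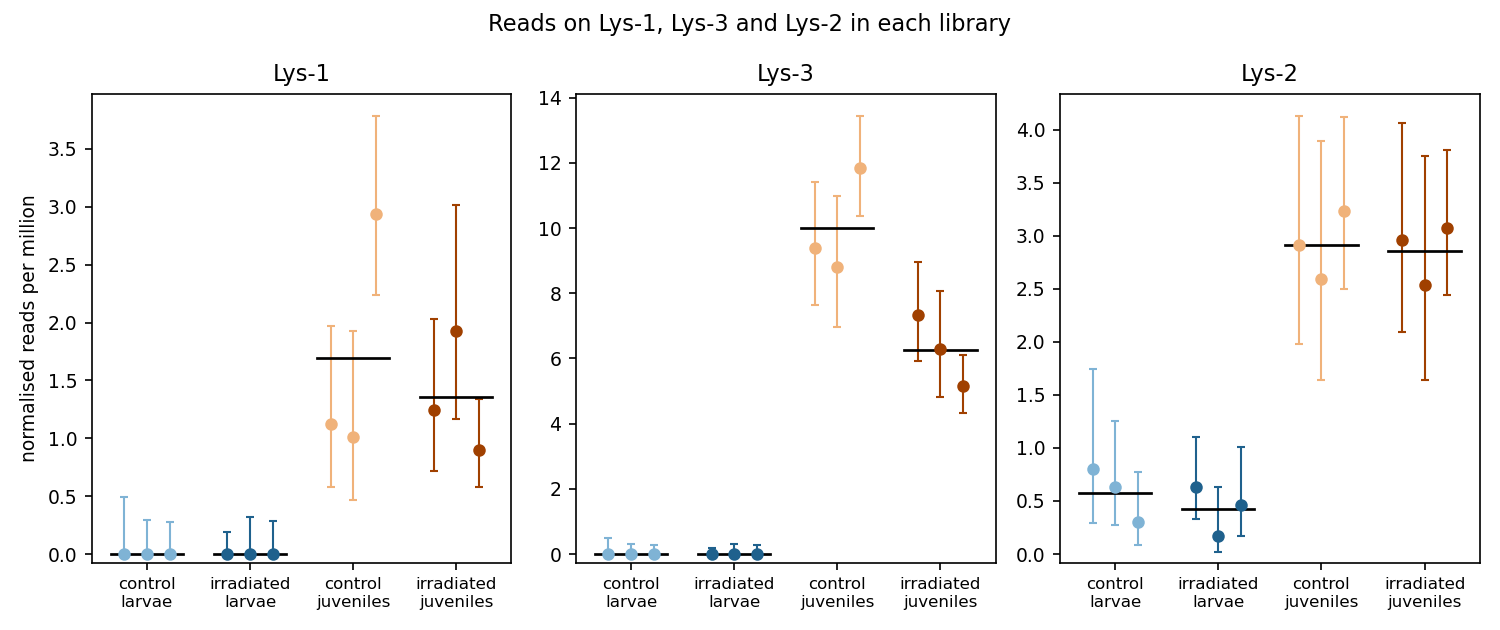
Normalised counts (CPM) of Lys-1, Lys-3 and Lys-2 (vertical axes, each with its own scale) in the 3 libraries of each group. Points are libraries, whiskers exact Poisson 95% intervals of the count, and black lines group means. Lys-1 and Lys-3 are at 0 in all 6 larval libraries, and for Lys-3 the irradiated juvenile points, at 5.16 to 7.33, lie below the control points, at 8.79 to 11.8.

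Lys-3 was lower in every irradiated juvenile library than in every control. It had 100, 78 and 238 reads in the control juvenile libraries, or 9.39, 8.79 and 11.8 CPM. In the irradiated juvenile libraries it had 94, 62 and 138 reads, or 7.33, 6.30 and 5.16 CPM. The groups did not overlap, and the mean was 10.0 ± 1.61 CPM in controls (SD, n = 3) against 6.27 ± 1.08 in irradiated juveniles. The fitted log2 fold change was −0.69, a level of 0.620 of the control, where the SD between replicates was 0.22 on the log2 scale. Irradiated libraries lay wholly below controls for 21.1% of all genes tested, and 16.1% of all genes tested had a lower log2 fold change than Lys-3. Of the genes with 0 larval reads and a read in each juvenile library, 120 were tested, Lys-1 and Lys-3 among them. Their median log2 fold change was −0.32, against −0.04 over all genes tested. Of these 120 genes, 13 were called lower and 3 higher by edgeR, at an adjusted p of 0.05 or less. Of all genes tested, 11.1% were called lower and 10.8% higher. The log2 fold change of Lys-3 remained between −0.82 and −0.54 when each library was left out in turn. In bulk RNA from whole animals, fewer cells that make a transcript and less transcript per cell cannot be told apart.

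Lys-1 was counted less, and its juvenile groups overlapped. It had 12, 9 and 59 reads in the control libraries, or 1.13, 1.01 and 2.93 CPM. The irradiated libraries had 16, 19 and 24 reads, or 1.25, 1.93 and 0.898 CPM. A single library, the third control, stood above the others, with a Poisson 95% interval of 2.23 to 3.79 CPM. This interval did not reach those of the other controls (0.582 to 1.97 and 0.464 to 1.93). It did overlap that of the second irradiated library (1.16 to 3.02). The third control was also the deepest control, with 20313949 reads against 10544816 and 9384973. The lowest Lys-1 level came from the deepest irradiated library, with 26974509 reads. The part of depth in these levels was not tested. The means were 1.69 ± 1.08 CPM in controls (SD, n = 3) and 1.36 ± 0.525 in irradiated juveniles, and the log2 fold change was −0.43 with an SD between replicates of 0.54. Without the third control library the log2 fold change turned to 0.30, and without the third irradiated library it was −0.16, so a single control library set the direction of this difference.

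Most reads on Lys-1 could not be told from another place in the genome, whereas those on Lys-3 could. Of 710 juvenile reads on Lys-3, 94.9% were uniquely placed. Of 139 on Lys-1, 66 were uniquely placed and 73 (52.5%) also matched elsewhere. A share of 50% or more was found for 628 of the 18045 genes with at least 100 juvenile reads (3.48%), where the median was 0.444%. The uniquely placed reads of Lys-1 were of a single kind: all 66 spanned a junction between exons. All 32 of its intron reads and 41 of its 107 exon reads were not uniquely placed. Among 16659 genes of at least 2 exons with 50 or more uniquely placed exon reads in juveniles, such reads all spanned junctions in only 30 (0.180%), and the median share was 49.8%. Lys-2 had only 14 uniquely placed exon reads in juveniles, and all 14 spanned junctions as well. This comparison with other genes was chosen after the values had been seen. The Lys-1 count therefore included reads that the software assigned among several matching places. By uniquely placed reads alone the 3 controls had 4, 5 and 25 reads (0.387, 0.581 and 1.28 CPM). The irradiated juveniles had 9, 11 and 12 (0.722, 1.15 and 0.461 CPM), and the groups again overlapped. On these reads the means were 0.750 ± 0.470 CPM in controls (SD, n = 3) and 0.777 ± 0.347 in irradiated juveniles, so the controls were no longer the higher group.

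**Figure D2:**
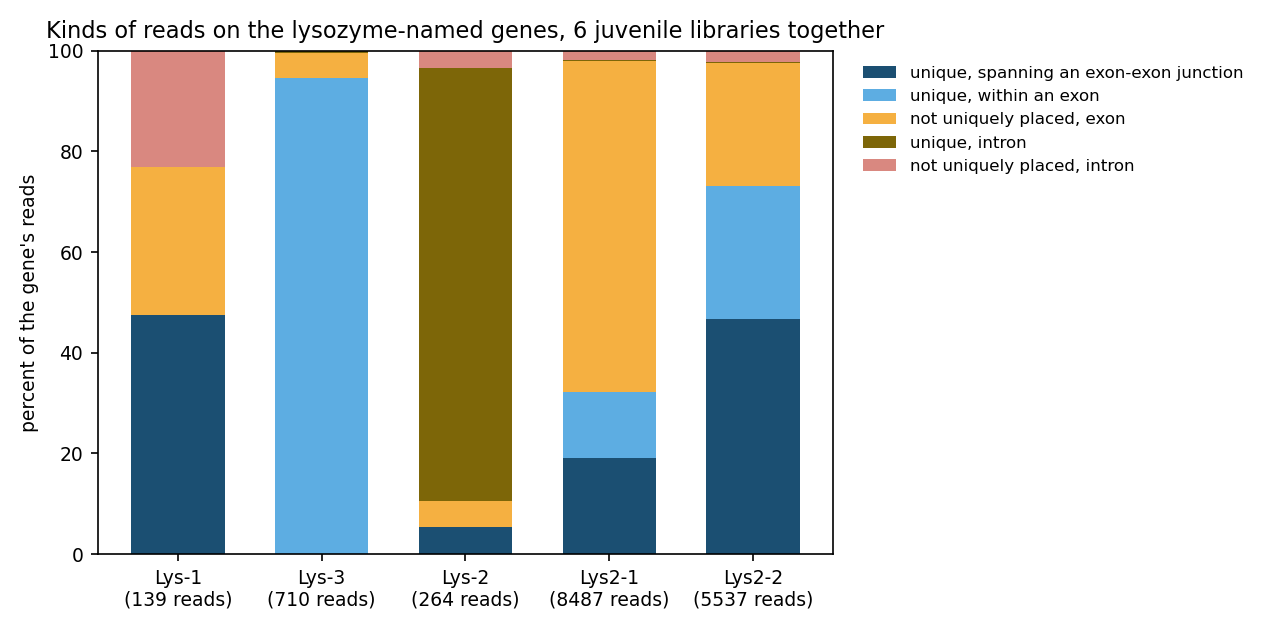
Percent of each gene's reads (vertical axis) that were uniquely placed across an exon-exon junction, uniquely placed within an exon, not uniquely placed in exons, or in introns (uniquely placed or not), with the 6 juvenile libraries added together. Lys-1 has no uniquely placed read outside junctions, 94.9% of Lys-3 reads are unique, and 89.4% of Lys-2 reads lie in introns.

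By its total reads Lys-2, which bears the same name, had a different pattern. It was read in larvae, with 6, 8 and 4 reads in controls and 12, 2 and 6 after irradiation, and all 38 of these reads lay in introns. In control juveniles it had 31, 23 and 65 reads and in irradiated juveniles 38, 25 and 82. Exon reads were 2, 3 and 16 of these in controls and 3, 2 and 2 in irradiated juveniles, and 0 in the 6 larval libraries. By exon reads alone Lys-2 was thus also counted only in juveniles, with very few reads. Of the 264 juvenile reads 89.4% were in introns, against a median of 6.29% for genes with at least 100 juvenile reads. As the use of strand in counting is not stated, reads of another gene lying inside these introns cannot be told from those of Lys-2. Its total reads were higher in control juveniles (2.91 ± 0.320 CPM, n = 3) than in control larvae (0.579 ± 0.255), with a log2 difference of 2.39 (standard error 0.41, adjusted p = 2.3e-04 by edgeR's quasi-likelihood test), in a comparison in which 32.8% of genes were called higher and 29.8% lower in juveniles. In total reads no response to irradiation was detectable in juveniles (log2 fold change −0.03, 95% interval −0.76 to 0.70, adjusted p = 0.968 by edgeR) or in larvae (−0.30, −1.35 to 0.75, adjusted p = 0.847). Nor was a difference between the larval and juvenile responses of total reads detectable (0.27, standard error 0.59, adjusted p = 0.873), where 3.47% of genes were called. The exon reads of Lys-2 were too few to be tested. They gave a mean of 0.809 ± 0.598 TPM in control juveniles (SD, n = 3), where the third library held 16 of them. In irradiated juveniles the mean was 0.301 ± 0.141 TPM. A response of the spliced transcript was therefore not measured.

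The genes named Lys2 shared the juvenile pattern of Lys-3 at higher levels. Lys2-1 had 5110 reads in control juveniles and 3 in control larvae, a ratio of 1435 with a counting interval of 491 to 6963. Lys2-2 had 3737 and 2 reads, a ratio of 1575 with an interval of 436 to 13007. Both were called higher in juveniles by edgeR (adjusted p = 2.7e-09 and 2.1e-08). The size of these differences rested on very few larval reads: the fitted log2 difference of Lys2-1, 10.29, was 12.15 with uniquely placed reads and 13.72 with exon reads, as its 3 control larval reads were intron reads that were not uniquely placed. That of Lys2-2, 10.27, was 13.20 without the second control larval library, which held both reads, 9.61 without the third, and 11.05 with exon reads. In irradiated larvae 5 reads of Lys2-1 and 10 of Lys2-2 were counted, 5 and 8 of them in the first library.

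After irradiation of juveniles, Lys2-2 fell and Lys2-1 was lower without passing the test. Lys2-2 had 70.7, 62.5 and 121 CPM in controls and 52.4, 41.6 and 26.9 CPM in irradiated juveniles, and the groups did not overlap. Its log2 fold change was −1.08 (standard error 0.32, adjusted p = 0.0278 by edgeR's quasi-likelihood test). This call did not hold with the third control left out (−0.73, adjusted p = 0.142), nor without the second irradiated library (−1.10, adjusted p = 0.0722) or the third (−0.85, adjusted p = 0.102). Lys2-1 had 114, 116 and 142 CPM in controls and 106, 61.2 and 52.9 in irradiated juveniles, again without overlap. Its log2 fold change of −0.76 was not called (standard error 0.26, adjusted p = 0.0559). Of its juvenile reads 67.6% were not uniquely placed, and with uniquely placed reads only the fall was called (−0.85, adjusted p = 0.0268). In this comparison 11.1% of all genes were called lower and 10.8% higher.

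**Figure D3:**
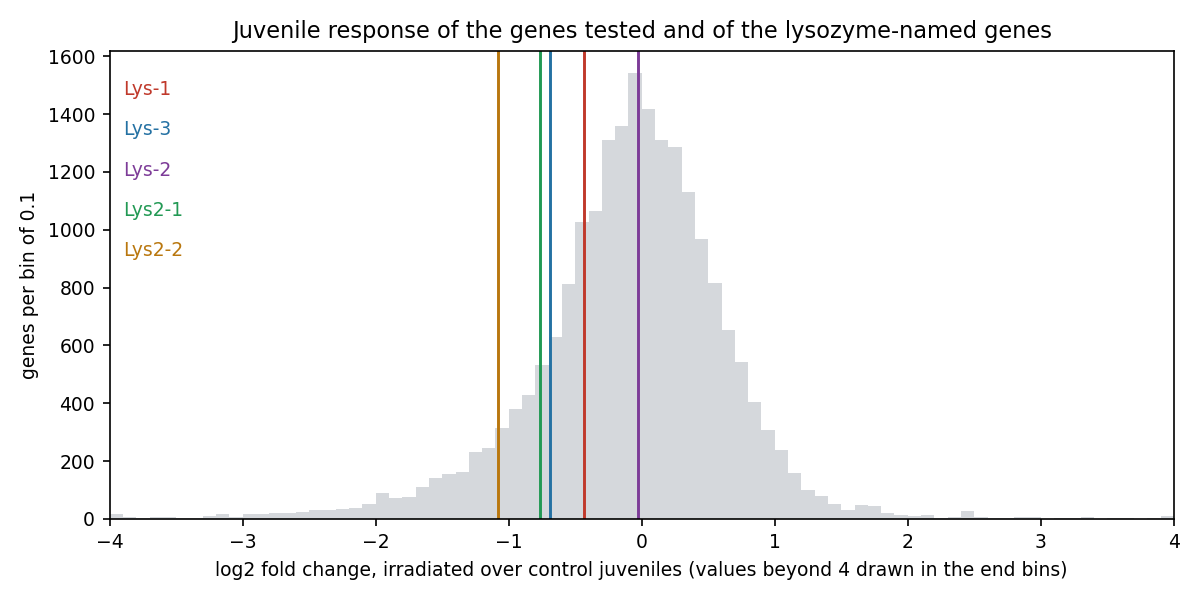
Distribution of the log2 fold change of irradiated over control juveniles for the 20780 genes tested (horizontal axis; vertical axis, genes per bin), with the 5 lysozyme-named genes as vertical lines. Lys2-2 (−1.08), Lys2-1 (−0.76), Lys-3 (−0.69) and Lys-1 (−0.43) lie left of the centre, and Lys-2 (−0.03) at the median of all genes (−0.04).

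Per exon length the levels in juveniles fell into steps. In control juveniles Lys-3 had 46.4, 40.2 and 57.9 TPM, and its mean of 48.1 TPM was higher than that of 90.4% of all genes. Lys-1 had 3.33, 2.46 and 9.55 TPM, with a mean near the middle of the annotation (higher than 51.6% of genes). Within a library Lys-3 exceeded Lys-1 by 6.06 to 16.3 times in controls and by 5.46 to 10.6 times after irradiation. Lys-2 was the lowest, at 0.353 to 1.49 TPM in controls, because TPM counts its few exon reads only. Lys2-1 (208 to 275 TPM) and Lys2-2 (224 to 472 TPM) stood above Lys-3, and their ranges overlapped, although Lys2-2 was the higher of the pair in each of the 3 control libraries. TPM also counts exon reads that were not uniquely placed. In juveniles these were 5586 of 8314 exon reads on Lys2-1, 1350 of 5402 on Lys2-2 and 41 of 107 on Lys-1. They were 36 of 707 on Lys-3 and 14 of 28 on Lys-2. The levels therefore rest in part on where the software assigned such reads. The ranges of Lys2-1, Lys-3, Lys-1 and Lys-2 did not overlap with each other in controls, nor did they in irradiated juveniles.

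**Figure D4:**
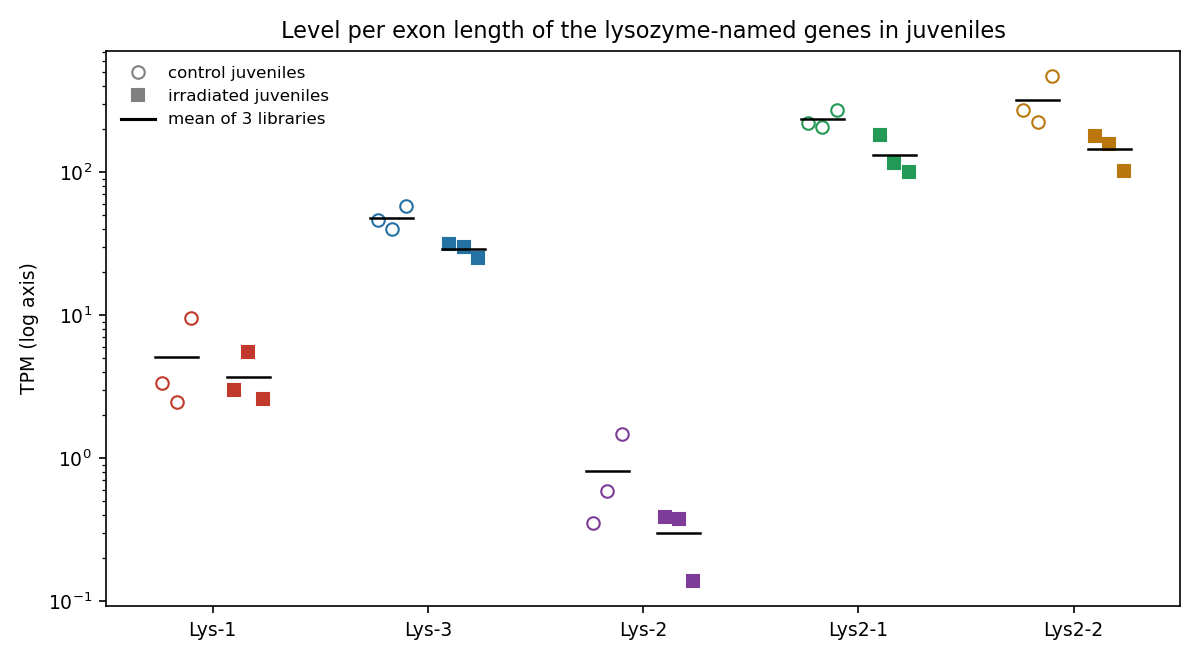
TPM (log axis) of the 5 lysozyme-named genes in control (open circles) and irradiated juveniles (filled squares), 3 libraries each, with means as black lines. Lys2-1 and Lys2-2 lie above 100 TPM, Lys-3 between 25.1 and 57.9, Lys-1 between 2.46 and 9.55, and Lys-2 between 0.138 and 1.49.

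Genes were ranked by the likeness of their pattern to the lysozyme genes, measured as Pearson's r of log2(CPM + 1) among genes of at least 1 CPM on average. These values describe the libraries and carry no test. Over the 6 juvenile libraries, which share the irradiation contrast and their depths, genes among the most like Lys-3 were R3hd4 (r = 0.996), Nk3r-11 (0.994), Eys-5 (0.993) and Zc21c (0.992) of 18350 compared. Lys2-2 came close behind, at 0.990 with only 6 genes above it, and Lys2-1 reached 0.942 (201 genes above it). Lys-1 was less like Lys-3, at 0.538, with 5409 genes above it. Among the genes most like Lys-1 were Cg026 (0.986), T2eb (0.979), Fa5v-2 (0.977) and Unchar_889 (0.969). Over all 12 libraries r mostly reflects the split between stages, and 1697 genes reached 0.95 or more with Lys-3. The closest were Cuzd1-5, Lys2-2, Fat4-15, Cp2u1-48 and Cad96-53, all at 0.998 or 0.999. For Lys-1 they were Tri56-13, Mmp10-1, Unchar_1213, Pol4-40 and Caln-5, at 0.975 to 0.981, and 88 genes reached 0.95.

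Other genes that act on bacteria or in digestion were counted from lists of names. Of 18 genes that recognise or kill bacteria, such as peptidoglycan recognition proteins, 5 fell in irradiated juveniles and 0 rose, beside 11.1% and 10.8% of all genes. Their median log2 fold change was −0.15, against −0.04 over all genes. The 5 were Bgbp-2 and Bgbp-4, named for beta-glucan binding proteins that detect fungal and bacterial sugars in invertebrates, Pgsc2-3, named for a peptidoglycan recognition protein, and Bpi-1 and Lbp-1, named for proteins that bind bacterial lipopolysaccharide in mammals. Bgbp-2 went from 14.1 ± 9.11 CPM in controls (n = 3) to 1.75 ± 0.976 (log2 fold change −2.92, adjusted p = 0.00171 by edgeR), and Lbp-1, the most abundant, from 348 to 126 CPM (−1.46, adjusted p = 1.1e-04). The call of Bgbp-4 (−2.83, adjusted p = 0.0284) did not hold without the first control (−1.52, adjusted p = 0.202) or without any 1 of the irradiated juvenile libraries (adjusted p = 0.0666 to 0.0946). In larvae 0 of the 18 genes were called in either direction, where 2.05% of all genes were called lower and 1.87% higher. In control juveniles 8 of the 18 were higher and 7 lower than in control larvae, beside 32.8% and 29.8% of all genes.

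Enzymes of lysosomes and of the gut were called in both directions in juveniles, where 11.1% of all genes were called lower and 10.8% higher. Of 59 lysosomal hydrolases tested, 1 fell, the cathepsin Catl-2 (41.7 ± 32.1 to 5.69 ± 1.72 CPM, log2 fold change −2.83, adjusted p = 8.4e-04 by edgeR, and −1.99 without the second control), and 1 rose, the glycosidase Nagab-1 (1.60 ± 0.316 to 3.65 ± 0.419 CPM, 1.16, adjusted p = 0.00526). In larvae 4 of them rose, Idua, Catc, Sphm-3 and Catz-2, with log2 fold changes of 0.63 to 0.89, and 0 fell, beside 1.87% and 2.05% of all genes. Each of these 4 calls was lost when some larval libraries were left out, the first control among them for all 4 (adjusted p = 0.0542 to 0.124), and that of Sphm-3 also without the first irradiated juvenile library (adjusted p = 0.0550). Of 34 digestive hydrolases tested, 2 fell in juveniles, Ctrb-3, named for chymotrypsinogen (−1.94, adjusted p = 0.00318), and Mga-6, named for maltase-glucoamylase (−0.91, adjusted p = 0.0472). The Mga-6 call was lost without any 1 of the irradiated juvenile libraries or the first or second control (adjusted p = 0.0876 to 0.134), without any 1 of 4 larval libraries (the first and the third irradiated, the first and the second control, adjusted p = 0.0552 to 0.0719), and under several other settings (adjusted p = 0.0560 by DESeq2, 0.0665 in a fit of juveniles alone, 0.0690 with no filter and 0.0948 with exon reads). Suis-4, named for sucrase-isomaltase, rose from 5.65 ± 1.77 to 25.8 ± 10.3 CPM (2.15, adjusted p = 7.3e-04). By stage, 32 of the 59 lysosomal and 18 of the 34 digestive genes were lower in control juveniles than in control larvae, and 7 and 8 were higher, beside 29.8% of all genes lower and 32.8% higher.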

How the data were processed

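RNA from pools of 5 animals was sequenced as 75-bp pairs in a single lane. The authors mapped the reads to the v2.0 genome with CLC Genomics Workbench and deposited, per library, a table of 27463 genes with read counts (total, unique, exon, intron and exon-exon reads, not normalized) and TPM, which the authors' software scaled by exon length. Mapping, strand use and the sharing of reads between copies could not be varied. Total gene reads, the sum of exon and intron reads, were fitted by edgeR 4.0.16 under R 4.3.3 (filterByExpr, TMM with factors of 0.931 to 1.07, quasi-likelihood tests, 1 mean per group, all 12 libraries together). P-values were two-sided and adjusted by Benjamini-Hochberg over 20780 genes, and calls were made at 0.05 or less. The fit was tested on simulated counts. Replicates were independent pools, per the paper. Members, lists and tests were chosen with earlier results of these data known.

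Named were Lys-1, Lys-3, the other rows named Lys with a number, the 5 genes most like each member (some are not reported here), and the largest called changes of each list (up to 2 falls and 2 rises in juveniles). Bpi-1, Lbp-1, Pgsc2-3 and the larval calls were named after their values were seen. Neighbouring genes on the genome were to be named too, which needs coordinates. Of the names listed, 6 of 19 (bacterial recognition and killing, 18 genes), 30 of 35 (lysosomal, 63 genes), 14 of 33 (digestive, 50 genes) and 1 of 21 (other lysozymes, the 2 Lys2 genes) were found. Alternatives were median-of-ratios size factors, no filter, DESeq2 1.42.0, a fit of 1 stage alone, a replicate block, unique reads, exon reads, each library left out, and an adjusted p of 0.01. The numbers of the replicates did not pair the libraries (see the closing section).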

Additional observations from a re-analysis of the deposited data

How the results depend on the processing

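Among the alternatives, the log2 fold change of Lys-3 in juveniles ran from −0.71 to −0.67 and that of Lys-1 from −0.57 to −0.34, and with each library left out from −0.82 to −0.54 and from −0.73 to 0.30. Lys-1 failed the filter with uniquely placed reads and so had no fitted value there. The bound on the log2 stage difference of Lys-1 in controls, 4.49, which covers the larval count only, moved to 3.26 with uniquely placed reads. With control libraries left out it ran from 3.58 to 4.71, and that of Lys-3 (6.87) from 6.13 to 6.93. The filter, DESeq2 and the block do not enter these bounds. The 1 other Lys gene, Lys-2, kept its calls: it was called between the stages and in no other comparison under every alternative that tested it, which exon reads did not. The context lists had 11 calls in juveniles, 8 to 15 under the alternatives and 8 to 14 with libraries left out. Same-numbered control and irradiated libraries did not deviate together (r of −0.08 to 0.06 over 6 pairs, 2 of which correlated best with their own number). In a replicate block the Lys2-2 fall in juveniles was not called (−1.06, adjusted p = 0.0778, where the alternatives gave 0.00676 to 0.0778) and the context lists had 10 calls. No other call of the Lys or Lys2 genes changed in the block, and of the named list genes Bgbp-4 (adjusted p = 0.0697), Mga-6 (0.106), Idua in larvae (0.0533) and Sphm-3 in larvae (0.0745) lost theirs. In a fit of larval libraries alone the 4 larval lysosomal calls were lost (0.0616 to 0.0837). Lys2-1 was called in juveniles by DESeq2 (adjusted p = 0.0258) and without the first (0.0412) or second (0.0454) irradiated larval library or the first irradiated juvenile library (0.0110). Larval responses of Lys-1 and Lys-3 have no value under any alternative, as both groups had 0 reads.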
